A study of Mus musculus with 2 samples.

Results

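Red pulp macrophages were taken from 2 spleen libraries as the cells that carried their marker transcripts. Transcripts were counted as unique molecular identifiers (UMIs, each standing for 1 captured molecule). Among cells in which 500 to 5000 genes were seen, with less than 15% of UMIs from mitochondrial and less than 30% from ribosomal genes, a cell was a member when C1qa, C1qb, C1qc, Vcam1, Cd5l and Slc40a1 together gave at least 10 UMIs and at least 1% of its UMIs. It also needed at least 3 C1q UMIs, at least 1 Vcam1 UMI and under 1% of S100a8 and S100a9 UMIs. This gave 358 members of 20060 kept cells and 24292 cells in all, 253 in the library called wild-type and 105 in the library called SCD (sickle cell disease). The levels of these 8 genes chose the members and are given below as a description.

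Red pulp macrophages line the open blood spaces of the spleen and engulf aged and damaged erythrocytes. They break hemoglobin heme down with heme oxygenase, encoded by Hmox1, store the iron in ferritin and return it to the blood through the exporter ferroportin, encoded by Slc40a1. The transcription factor SPI-C, encoded by Spic, is needed for their development and is itself induced by heme, and in hemolytic disease these cells meet an excess of heme and iron.

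Each library came from the spleen of 1 untreated mouse aged 12 to 16 weeks, so the comparison had no replicate and no test across animals was possible. Both mice were homozygous for the Hbatm1Paz allele. The wild-type mouse was the non-sickling control, heterozygous for Hbbtm1Tow and hemizygous for the human globin transgene Tg(HBA-HBBs)41Paz, whereas the SCD mouse was homozygous for both and sickling (Berkeley model). Red cells had been lysed and dendritic cells (DCs) enriched by removing other cells with magnetic beads, so the members were macrophages that had passed the beads and their number does not measure their abundance in the spleen. All values are raw UMIs summed over the members of a library and scaled to counts per 1000000 UMIs (CPM), log2 ratios are SCD over wild-type with 10 CPM added to both, and all 95% intervals cover counting error only.

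The whole libraries held 97880318 UMIs in 10845 wild-type cells and 189688217 UMIs in 13447 SCD cells. Members were shallow, with a median of 1299 UMIs (651 to 16786) and 733 genes in wild-type and 2047 UMIs (833 to 19374) and 975 genes in SCD, against 5078 and 8344 UMIs in the other kept cells. The summed depth was 502342 UMIs in wild-type and 358654 UMIs in SCD members. Of the barcodes, 88 occurred in both libraries and none of them belonged to a member. Scrublet called 355 wild-type and 202 SCD kept cells doublets, of which 0 and 1 were members. Mouse beta globin followed the labels, with Hbb-bs at 3565 and 75.3 CPM in wild-type and SCD members. A single cell held 78.3% of the wild-type Hbb-bs UMIs. Hba-a1 transcripts were counted in both libraries despite the Hbatm1Paz allele, at 1642 and 2172 CPM, and a single cell held 72.5% and 68.3% of them. The labels do not give the extent of the deletion, so whether the counted 3′ ends lie inside it was not tested.

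The rule genes themselves made up a median of 2.37% of the UMIs of a wild-type member and 2.46% of those of an SCD member. C1qa, a chain of the complement-activating C1q, stood at 4644 CPM (4458 to 4837) in wild-type and 4960.2 CPM (4732 to 5196) in SCD. Vcam1, an adhesion receptor, stood at 6382 and 6499 CPM, and Slc40a1 at 5536 and 6019.7 CPM. Cd5l, a secreted survival factor of macrophages, differed between the libraries within the members, at 703 CPM (631 to 780.0) in wild-type and 2412 CPM (2254 to 2578) in SCD. Its UMIs were seen in 155 of 253 wild-type and 100 of 105 SCD members, and in 47.3% and 84% of members after thinning to 1000 UMIs each. The share was 0.202% and 0.151% in S100a8- and S100a9-rich cells thinned likewise, which the rule leaves out and which are given as a background level only. The sign of the Slc40a1, C1qa and Vcam1 ratios turned with the settings.

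Just inside the thresholds were 7 wild-type and 2 SCD members with 10 to 12 rule UMIs, and 38 and 3 members with fewer than 550 genes. Just outside, 88 wild-type and 6 SCD cells met the rule but had fewer than 500 genes, and 32 and 7 kept cells failed only the 1% limit on rule genes. The neutrophil limit lay close to the SCD members, of which 27 had 0.75% or more S100a8 and S100a9 UMIs against 3 wild-type members. All 105 SCD members carried at least 0.251% of these UMIs, with a median of 0.618%, whereas the wild-type median was 0.0989%.

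**Figure D1:**
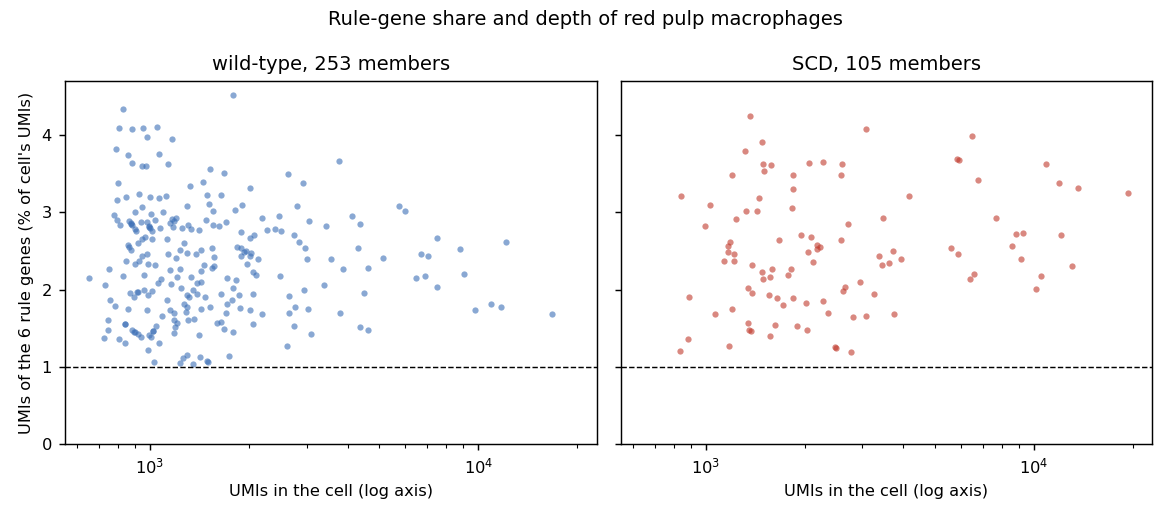
Share of the 6 rule genes (percent of a cell's UMIs) against the UMIs of the cell (log axis) for each member, with wild-type on the left and SCD on the right. Each point is 1 cell and the dashed line is the 1% limit of the rule. The shares lie between 1.04% and 4.52% in wild-type and between 1.19% and 4.25% in SCD, and most wild-type cells lie at the shallow end.

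The label was checked against markers that the rule did not use. Of 17 such markers 16 were expressed, meaning at least 100 CPM and 20 UMIs in a library, and 13 of those were at least 4-fold above all other kept cells in both libraries. Over all 1981 expressed genes this held for 233, or 11.8%. The members were chosen on the same cells, so these shares describe them and support nothing further. Spic, at chr10:88674772-88685015 in the GRCm38 annotation, reached 878 CPM (798 to 964) in wild-type and 783 CPM (695 to 881) in SCD, against 3.52 and 0.90 CPM in the neutrophil set, the kept cells with at least 5% S100a8 and S100a9 UMIs. In thinned cells a Spic UMI was seen in 52.2% and 49% of members (58.9% and 68.6% unthinned) and in 0.202% and 0.0822% of that set. Adgre1, which encodes the F4/80 antigen, stood at 894 and 744 CPM, and Itgad, the integrin CD11d of red pulp macrophages, at 1133 and 616 CPM. Siglecf, counted in the same list, had 1 UMI in each library.

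Of the other splenic macrophages, only the marginal zone and metallophilic ones had a marker list, and its genes were split. This list of 6 genes summed to 535 and 870 CPM in members and to 252 and 99.8 CPM in the other kept cells. Cd209b, which marks marginal zone macrophages, was at 0 in both libraries, and Siglec1, the metallophilic macrophage receptor, had 25 and 33 UMIs, or 49.8 and 92.0 CPM, against 4.44 and 2.33 CPM in the other kept cells. Marco, the other marginal zone marker, and Nr1h3, which red pulp macrophages also express, were above the other kept cells and are described below. The 10 genes that led the members over the other kept cells were C1qa, Vcam1, C1qc, C1qb, Axl, Fcna, Mrc1, Ccr3, Igf1 and Cd5l. The lead of C1qa, Vcam1, C1qc, C1qb and Cd5l was fixed by the rule, and the other 5 describe the chosen cells.

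The leading genes outside the rule, chosen for a high lead in both libraries, differed by less than 2-fold between them. That choice itself favours similar levels. Of the 16 expressed markers outside the rule, 0 were past 2-fold higher in SCD members and 2 lower, with a median log2 ratio of −0.21. Over all expressed genes 3.69% were higher and 3.79% lower. Axl and Mertk, receptors that recognise dying cells, stood at 2040.4 and 1676 CPM and at 661 and 708 CPM. Mrc1, the mannose receptor, was at 1700.0 and 1665 CPM. Ccr3, a chemokine receptor better known from eosinophils, was at 1276 and 1079 CPM, and Igf1, a growth factor, at 1003 and 1224 CPM. Trf, which encodes the iron carrier transferrin, was at 2763 and 2080.0 CPM. Of the 20 genes outside the rule that led in both libraries, none was past 2-fold between them, and Fcna, a ficolin of innate immunity, had the highest ratio at 1489 and 2732 CPM while Itgad had the lowest, with a log2 ratio of −0.87.

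Members were a smaller share of the SCD library. They made up 2.68% of the kept wild-type cells (exact binomial interval 2.37 to 3.03%) and 0.987% of the kept SCD cells (0.808 to 1.19%), a ratio of 0.368 (0.293 to 0.461). The neutrophil set filled 7304 of 10636 kept SCD and 3970 of 9424 kept wild-type cells. Among kept cells outside that set, members were 4.64% in wild-type and 3.15% in SCD, a ratio of 0.679 (0.543 to 0.849). Raising the neutrophil limit of the rule from 1 to 5% gave 258 and 145 members and a ratio of 0.498. The direction was the same in each setting run, but with 1 mouse a group and bead depletion before capture the share cannot be told apart from recovery.

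Between the libraries, 73 of the 1981 expressed genes were at least 2-fold higher in SCD members (3.69%) and 75 at least 2-fold lower (3.79%). The median log2 ratio over all of them was −0.03. After thinning to 1000 UMIs a cell 59 were higher and 165 lower, and in members of 1000 to 3000 UMIs, a narrower but not equal depth, 64 and 216. The percentages over all members are the background against which the counts of each gene group below are set, and past 2-fold is a size and not a test.

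Hmox1, at chr8:75093621-75100589, was the heme gene with the highest level and was higher in SCD members. It stood at 5433 CPM (5231 to 5640.3) in wild-type and 9313 CPM (8999 to 9634) in SCD, with a ratio of 1.71 (1.63 to 1.80), and in 244 of 253 wild-type and 104 of 105 SCD members at least 1 UMI was seen. Its per-cell share had a median of 0.503% in wild-type and 0.959% in SCD, and the cells of the libraries overlapped. After every cell was thinned to 1000 UMIs, which left 182 wild-type and 100 SCD members, a Hmox1 UMI was found in 96.2% and 99.0% of them (96.4% and 99.0% unthinned), against 7.39% and 3.23% of the neutrophil set, whose median depth was 2571.5 and 7304.5 UMIs. A single SCD cell held 11.6% of the Hmox1 UMIs, and without the top cell of each library the log2 ratio was 0.67 instead of 0.78.

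The remaining heme genes differed less, except Cd163, which was lower in SCD members. Of 7 expressed heme genes 0 were past 2-fold higher and 1 lower, with a median log2 ratio of 0.22. Blvra and Blvrb, the biliverdin reductases that act after heme oxygenase, stood at 149 and 209 CPM and at 643 and 675 CPM. Slc48a1, the heme transporter HRG1 of the phagosome, was at 535 and 625 CPM, and Lrp1, the receptor for heme bound to hemopexin, at 561 and 756 CPM. The Blvrb and Slc48a1 ratios had counting intervals that included 1 (0.885 to 1.24 and 0.972 to 1.40). Cd163, the receptor for hemoglobin bound to haptoglobin, at chr6:124304656-124330527, was lower, at 615 CPM (548 to 688) in wild-type and 198 CPM (155 to 249.7) in SCD, with a ratio of 0.322 (0.245 to 0.418). A Cd163 UMI was seen in 104 wild-type and 21 SCD members, and in thinned cells in 34.1% and 10% (41.1% and 20% unthinned).

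Ferritin was the iron gene product that differed most in amount. Fth1, the heavy chain, stood at 8231 CPM (7982 to 8486) in wild-type and 13213 CPM (12839.7 to 13595) in SCD, and Ftl1, the light chain, at 12521 CPM (12214 to 12835) in wild-type and 19621 CPM (19165 to 20084) in SCD. Together they made up a median of 2.19% of the UMIs of a wild-type cell and 3.77% of those of an SCD cell, and the neutrophil set showed no such direction, with Fth1 at 3862 and 1454 CPM. Ncoa4, the adaptor that delivers ferritin to autophagy, was at 412 and 588 CPM, and its sign turned after thinning to 1000 UMIs (log2 ratio −0.05). Slc11a1, the iron transporter of the phagosome, was at 376 and 354 CPM, and Hfe, a regulator of iron sensing, at 245 and 257 CPM. Of 9 expressed iron genes 1 was past 2-fold higher, Lcn2, a neutrophil granule protein, and 0 were lower. Lcn2 was at 47.8 and 209 CPM in members and at 7514 and 12690 CPM in the neutrophil set. The part of neutrophil transcripts in its member level was not tested. The list median of 0.12 is the value of the rule gene Slc40a1 and turned to −0.07 after thinning.

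**Figure D2:**
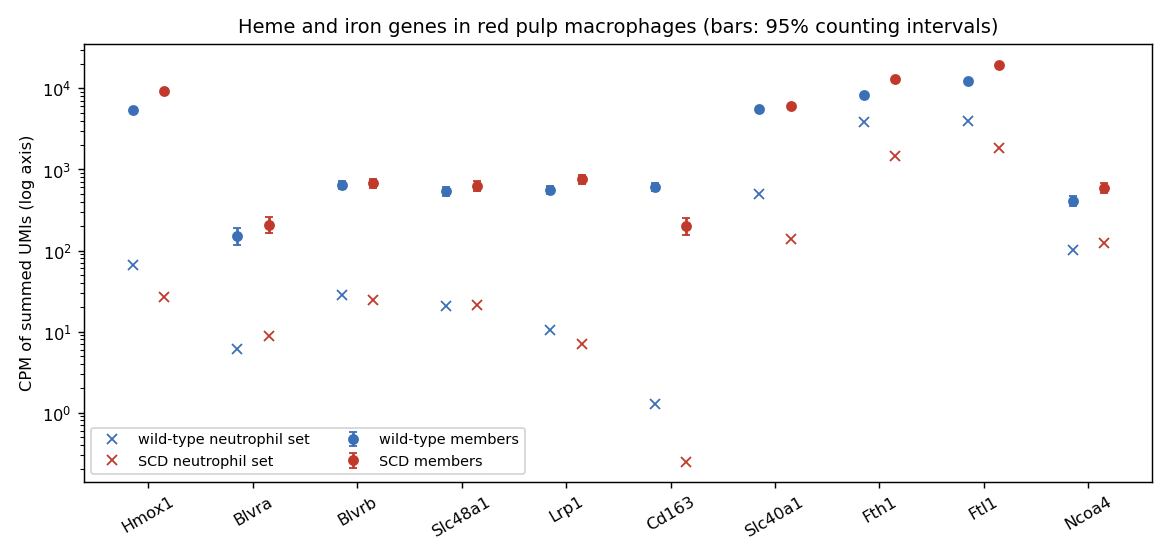
Levels of 10 heme and iron genes in members (circles, CPM on a log axis, bars are 95% Poisson intervals of the summed counts) and in the neutrophil set of the same library (crosses). Hmox1 lies at 5433 CPM in wild-type and 9313 CPM in SCD members, Fth1 and Ftl1 are higher in SCD members and lower in the SCD neutrophil set, and Cd163 is the gene with SCD clearly below wild-type.

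**Figure D3:**
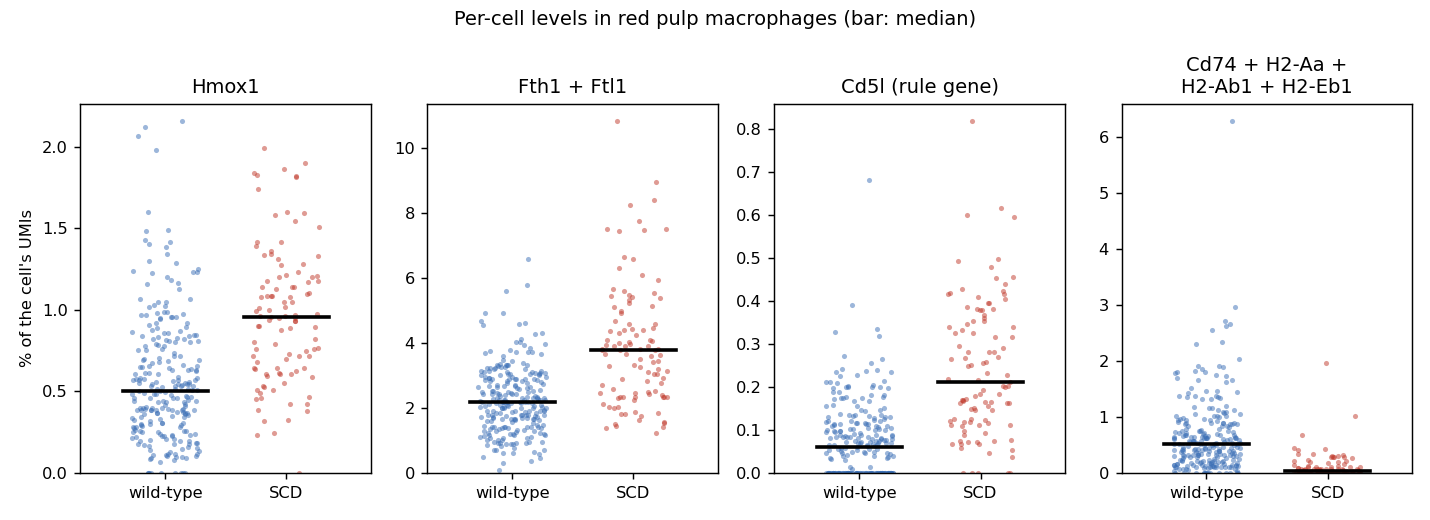
Percent of a cell's UMIs for Hmox1, ferritin (Fth1 and Ftl1), Cd5l and 4 major histocompatibility complex (MHC) class II genes in each member. Points are cells, bars are medians, and the axes differ in scale. Cd5l is a rule gene and is shown as a description. The medians of Hmox1 (0.503% and 0.959%), ferritin (2.19% and 3.77%) and Cd5l (0.0594% and 0.210%) are higher in SCD and that of MHC class II (0.507% and 0.0362%) is lower, with overlapping cells throughout.

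Of 12 expressed regulators of macrophage identity 0 were past 2-fold higher and 0 lower, with a median log2 ratio of −0.04. Over all expressed genes 3.69% were higher and 3.79% lower, so a list of 12 could hold none without differing from them. Spic had a ratio of 0.892 (0.766 to 1.04). Maf, a transcription factor that keeps macrophages differentiated, stood at 1319.8 and 1227 CPM. Nr1h3, the oxysterol receptor LXRα that red pulp and marginal zone macrophages use, was at 416 and 301 CPM.

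Among phagocytic and scavenger receptors and their ligands, 3 of 15 expressed genes were past 2-fold higher and 1, Cd163, was lower, with a median log2 ratio of 0.00. Marco, a scavenger receptor for bacteria and particles, at chr1:120474538-120505024, had the highest ratio, at 59.7 CPM (40.3 to 85.3) in wild-type and 471 CPM (403 to 548) in SCD. A Marco UMI was seen in 15 wild-type and 39 SCD members, and in 3.30% and 28% of thinned cells (5.93% and 37.1% unthinned), against 0 of 3951 (up to 0.0759% with 3 counts) and 4 of 7299 thinned neutrophil set cells. Gas6, the ligand of the receptors Axl and Mertk, was at 21.9 and 145 CPM, with 11 and 52 UMIs. Clec4n, the fungal receptor dectin-2, was at 747 and 1536 CPM. Timd4, which binds phosphatidylserine on dying cells, was at 265 and 362 CPM, Stab2, a clearance receptor, at 147 and 148 CPM, and Sirpa, the inhibitory receptor that reads CD47 on erythrocytes, at 1565 and 1497 CPM.

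The SCD members were also read with and without a Marco UMI. The 39 with it had a median of 2234 UMIs and the 66 without it 1901 UMIs. Hmox1 was at 11766 and 7475 CPM, Cd5l at 2806 and 2116 CPM, Spic at 755 and 805 CPM, Cd163 at 189 and 205 CPM and Vcam1 at 6980 and 6139 CPM in them. A single SCD cell held 386 of the 3340 Hmox1 UMIs of all SCD members, and the split was not read without it. Both Cd5l values were above the 703 CPM of wild-type members, and both Cd163 values were below their 615 CPM. Cd5l and Vcam1 are rule genes, so their levels only describe the chosen cells. In the 15 wild-type members with a Marco UMI, Hmox1 was at 7571 CPM, Cd5l at 697 CPM, Spic at 1332 CPM, Cd163 at 212 CPM and Vcam1 at 6874 CPM. In the 238 without it these genes were at 5282, 703, 846, 643 and 6347 CPM. The 15 cells held 33021 UMIs in all, and their Cd163 level rested on 7 UMIs (85.2 to 437 CPM).

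Of 5 expressed complement genes 0 were past 2-fold higher and 1 was lower, but 3 of the 5 were the C1q genes that chose the members. The other 2, Cfp and C6, differed in their ratios. Cfp, which encodes properdin, was at 1101 and 1037 CPM. C6, a component of the membrane attack complex, was lower, at 641 CPM (573 to 715) in wild-type and 262 CPM (212 to 321) in SCD.

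Lysosomal genes lay above the median of all genes. Of 25 expressed genes 5 were past 2-fold higher and 0 lower, and the median log2 ratio was 0.42. Over all expressed genes 3.69% were higher and 3.79% lower, with a median of −0.03. Lyz2 and Cd63, given below, were among the higher ones of the list. Ctsd, the aspartic protease cathepsin D, was at 2373 CPM (2240.1 to 2512) in wild-type and 5186 CPM (4953 to 5427) in SCD, and Ctsb, cathepsin B, at 6802 and 9597 CPM. Lipa, the lysosomal acid lipase, was at 422 and 1109.7 CPM, and Psap, the prosaposin precursor, at 6163 and 7963 CPM. Cd63, a tetraspanin of late endosomes, was at 65.7 and 438 CPM, with UMIs in 8 wild-type and 63 SCD members, of which 1 wild-type cell held 42.4%. Lyz2, lysozyme, was at 299 and 2314 CPM. Neutrophils express both, with Lyz2 at 7483 and 10398 CPM and Cd63 at 282 and 288 CPM in the neutrophil set. Neutrophil markers were also higher in SCD members, and their part in the Lyz2 and Cd63 levels was not tested.

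Of 11 expressed lipid genes 3 were past 2-fold higher and 1 lower, around a median log2 ratio of 0.63. Lpl, lipoprotein lipase, was at 346 CPM (297 to 402) in wild-type and 1352 CPM (1235 to 1478) in SCD. Abca1, the cholesterol exporter, was at 255 and 521 CPM, a single SCD cell holding 18.7% of its UMIs. Apoe, which carries cholesterol out of macrophages, was at 4346 and 5864 CPM, while Apoc1, encoded beside it, was lower, at 459.8 and 187 CPM.

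NRF2 is a transcription factor that induces antioxidant genes, Hmox1 among them. Of 19 expressed NRF2 target genes 2 were past 2-fold higher and 0 lower, and the median log2 ratio was 0.53. Over all expressed genes 3.69% were higher and 3.79% lower, with a median of −0.03. Mgst1 and Gstm1, glutathione transferases, stood at 104 and 359.7 CPM and at 83.6 and 282 CPM. Prdx1, a peroxiredoxin, was at 1077 and 1559 CPM, Txn1, thioredoxin, at 1167 and 1790.0 CPM, Txnrd1, its reductase, at 111 and 189.6 CPM, and Gclm, a subunit of glutathione synthesis, at 133 and 187 CPM. In the neutrophil set Mgst1 was at 491 and 568 CPM, Gstm1 at 15.2 and 24.7 CPM and Txn1 at 1868 and 1453 CPM. Neutrophil markers were also higher in SCD members, and their part in the levels of these genes was not tested. The members of this list were chosen with earlier results of these data known, and it shares Hmox1, Blvrb, Fth1 and Ftl1 with the heme and iron lists.

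The 250 bases before the RefSeq start of a gene (GRCm38.p6) were searched on both strands for the core of the antioxidant response element, TGACNNNGC, and for the E-box CACGTG that regulators of lysosomal genes use. The first was found in 5 of 17 NRF2 list genes with a promoter in the table and in 6 of 21 lysosomal genes, against 11.5% of all 27025 genes and 16.1% of the 1579 expressed genes with a promoter. The second was found in 0 and 5 of them, against 6.86% of all and 11.7% of the expressed genes. Of the 19 and 25 expressed genes in these lists the others had no entry, Hmox1 among them. A gene with several starts counted once. Among the 13 expressed heme and iron genes with a promoter, the antioxidant letters were found in 4 and the E-box letters in 1. PU box letters, GAGGAAGT, used by the family of SPI-C, were found in 8 (4.52%) of the 177 genes with a promoter that were at least 4-fold above the other kept cells, against 2.79% of all and 3.23% of the expressed genes. The E-box letters were found in 6.78% of these 177 genes and the antioxidant letters in 17.5%. A match of letters is a description and does not show a site in use. The promoters of Prdx1, Txnrd1 (1 of its 3 starts) and Ctsd are shown because their genes had higher levels in SCD members and carry these letters, with the matches in capitals, 5′ to 3′ on the strand of the gene.
Prdx1, chr4:116685349-116685598, plus strand: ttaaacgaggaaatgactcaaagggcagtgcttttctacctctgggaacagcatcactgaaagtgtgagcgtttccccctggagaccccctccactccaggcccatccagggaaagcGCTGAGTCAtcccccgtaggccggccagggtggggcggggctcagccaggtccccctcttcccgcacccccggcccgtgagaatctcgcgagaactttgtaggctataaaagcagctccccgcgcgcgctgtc
Txnrd1, chr10:82858956-82859205, plus strand: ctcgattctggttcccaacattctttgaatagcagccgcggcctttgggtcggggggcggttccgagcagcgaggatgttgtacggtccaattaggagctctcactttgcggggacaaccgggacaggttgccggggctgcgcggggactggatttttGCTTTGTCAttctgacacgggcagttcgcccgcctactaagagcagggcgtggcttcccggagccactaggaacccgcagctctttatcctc
Ctsd, chr7:142387828-142388077, minus strand: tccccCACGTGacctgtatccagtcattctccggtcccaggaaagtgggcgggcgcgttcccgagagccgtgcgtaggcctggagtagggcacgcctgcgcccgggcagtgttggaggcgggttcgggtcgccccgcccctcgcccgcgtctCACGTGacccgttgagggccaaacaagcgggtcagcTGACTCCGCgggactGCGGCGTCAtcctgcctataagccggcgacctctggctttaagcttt
In Prdx1 and Txnrd1 the antioxidant letters lie on the opposite strand and begin 133 and 92 bases before the start. Ctsd holds both kinds, the E-box letters at 245 and 98 bases and the antioxidant letters at 62 and 47 bases before the start. The promoters of Gstm1, Lipa, Ftl1, Spic and Marco hold none of the 3 sets of letters in this window.

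The MHC class II genes of antigen presentation had the lowest median of the lists shown. Of 6 expressed MHC class II genes 0 were past 2-fold higher and 4 lower, with a median log2 ratio of −2.34, and the other 2, H2-DMa at 177 and 83.6 CPM and H2-DMb1 at 171 and 80.9 CPM, lay just short of the limit. Cd74, the invariant chain, was at 4354 CPM (4173 to 4540.0) in wild-type and 744 CPM (658 to 839) in SCD. H2-Aa and H2-Ab1, the chains of I-A, were at 1027 and 142 CPM and at 894 and 195 CPM, and H2-Eb1 at 756 and 64.1 CPM. In thinned cells a Cd74 UMI was seen in 87.9% of wild-type and 34.0% of SCD members (90.1% and 48.6% unthinned). The neutrophil set, which should lack Cd74, moved the same way, with 18.6% and 6.10% of its thinned cells and 854 and 257 CPM. Cells rich in MHC class II numbered 2002 in the wild-type and 526 in the SCD library, and the part of their free transcripts in the member levels was not tested.

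Of 6 expressed interferon genes 2 were past 2-fold higher and 1 lower, with a median log2 ratio of −0.51 that moved to −0.96 with equal cell weights, −0.97 after thinning to 1000 UMIs and −1.15 in members of 1000 to 3000 UMIs. Isg15 and Rsad2, the higher ones, each rested on 10 SCD cells, 1 of which held 42.1% and 25% of the UMIs. Ifi27l2a was lower, at 1322 and 527 CPM. The whole interferon list summed to 2835 and 1904 CPM in members. It summed to 1579 and 841 CPM in the neutrophil set and to 3376 and 3616 CPM in the monocyte set. Csf1r, the receptor for macrophage colony-stimulating factor, was at 2648 CPM (2507 to 2794) in wild-type and 1352 CPM (1235 to 1478) in SCD. In thinned cells a Csf1r UMI was seen in 92.3% and 62% of members and in 14.4% and 4.64% of the neutrophil set. The part of free transcripts in its member levels was not tested. Of 13 expressed growth factor, Fc and pattern receptors 0 were past 2-fold, against 3.69% higher and 3.79% lower of all expressed genes. Of 6 expressed chemokines and cytokines, Ccl24, a ligand of the receptor Ccr3, was higher, at 89.6 and 239.8 CPM, and Il1b was lower, at 135 and 22.3 CPM, with 1741 and 145 CPM in the neutrophil set. Of 7 expressed immediate early and heat shock genes 0 were past 2-fold higher and 1 was lower, Zfp36, which marks messenger RNAs for decay.

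**Figure D4:**
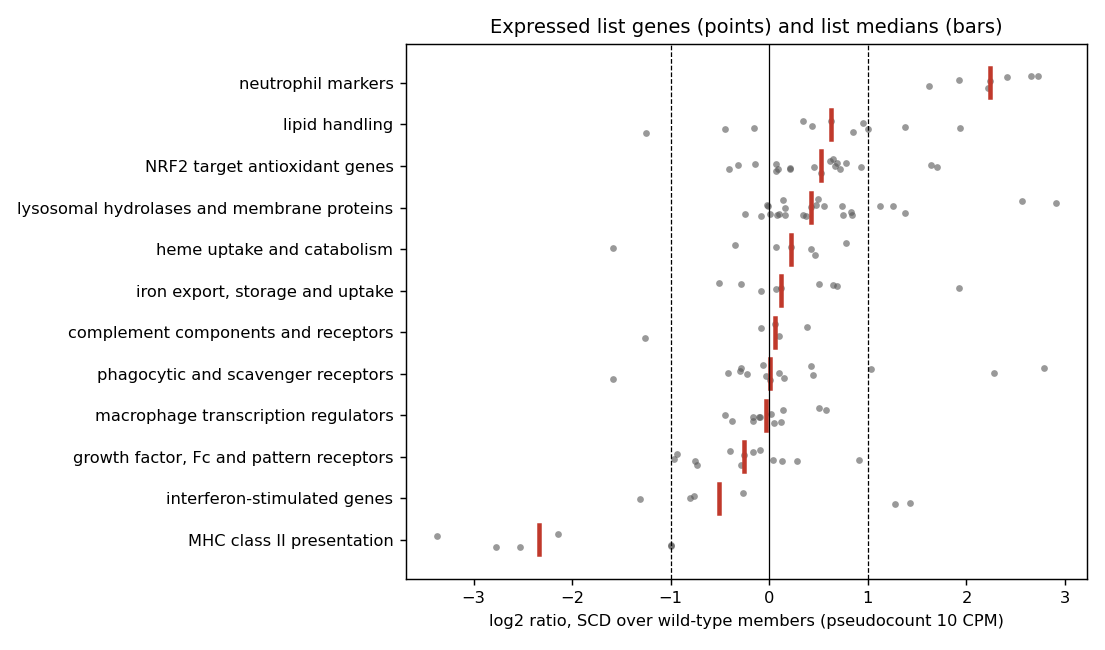
Log2 ratio of SCD over wild-type members (horizontal axis, 10 CPM added) for the expressed genes of 12 lists. Points are genes, red bars are list medians and dashed lines mark 2-fold. The medians run from −2.34 for MHC class II to 0.63 for lipid handling and 2.24 for neutrophil markers, where the median is the value of the rule gene S100a9.

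Of the 12 expressed genes with the highest ratios by the fixed rule, Marco, Cd63, Gas6, Wfdc17 and Npl were spread over many SCD cells. Wfdc17, a secreted protease inhibitor family member, was at 203 CPM (166 to 246) in wild-type and 1037 CPM (934 to 1148) in SCD, with UMIs in 63 and 75 members, and was at 1339 and 477 CPM in the neutrophil set. Npl, an enzyme of sialic acid breakdown, was at 21.9 and 142 CPM. Pdgfc, a growth factor, was at 19.9 and 117 CPM, from 10 and 42 UMIs, and B4galnt1, a ganglioside synthase, at 31.9 and 187 CPM. Nxpe5 and Prxl2a were at 13.9 and 131 CPM and at 41.8 and 189.6 CPM. Ypel4, Tmcc2 and Gadd45a rested on 6, 9 and 7 SCD cells. Ypel4 had 0 wild-type and 45 SCD UMIs.

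Adamdec1, a metalloprotease of tissue macrophages, had the lowest ratio of the 12 lowest genes. It was at 366 CPM (315 to 423) in wild-type and 27.9 CPM (13.4 to 51.3) in SCD, with UMIs in 98 wild-type and 9 SCD members, and at 0.49 and 0.03 CPM in the neutrophil set. Slpi, a secreted inhibitor of neutrophil proteases, was the most abundant of the 12, at 5589.8 CPM (5385 to 5800.5) in wild-type and 1112 CPM (1006 to 1227) in SCD. Slpi was at 3306 and 1131 CPM in the neutrophil set, and after thinning a UMI of it was seen in 90.7% and 48.0% of members (93.7% and 67.6% unthinned) and in 85.1% and 60% of that set. Cd83, which stabilises MHC class II at the surface, was at 207 and 47.4 CPM. Rgs1, a brake on chemokine receptor signalling, was at 225 and 47.4 CPM, and a single cell held 52.9% of its SCD UMIs. Both were also lower in the SCD neutrophil set, Cd83 at 15.8 and 1.78 CPM and Rgs1 at 11.8 and 1.33 CPM, and Cd83 stood at 249.5 and 142 CPM in the cells rich in MHC class II. The part of free transcripts in these levels was not tested. Ubd, a ubiquitin-like protein, was at 102 and 11.2 CPM, and Ugcg, the glucosylceramide synthase, at 215 and 55.8 CPM. The SCD level of Ubd rested on 4 UMIs in 2 cells. Without the top cell of each library the log2 ratio of Ubd was −3.06 instead of −2.40. Zdhhc2, Acsf2, Kcnj16, Cdk14, Ivns1abp and Cd163 completed the 12, with log2 ratios from −1.94 to −1.59.

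**Figure D5:**
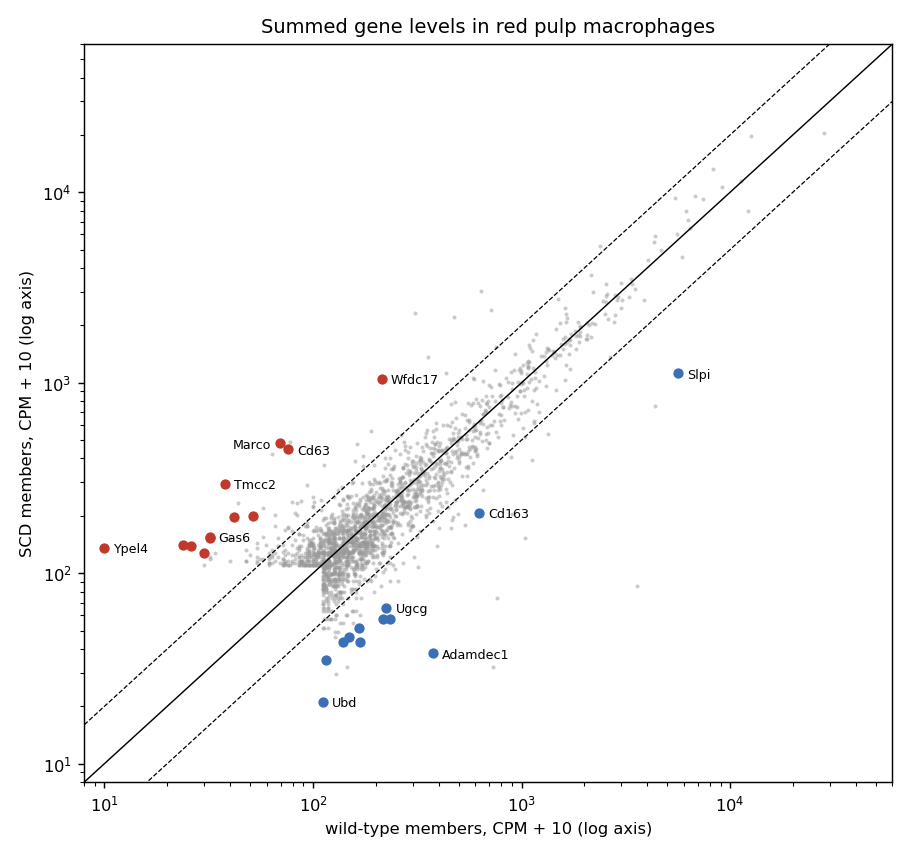
Summed level of each of the 1981 expressed genes in wild-type members (horizontal) and SCD members (vertical), as CPM plus 10 on log axes. The solid line is equality, dashed lines mark 2-fold, and colours mark the 12 highest (red) and 12 lowest (blue) genes by the fixed rule, some of them named. Most genes lie between the dashed lines, and Slpi and Cd163 are lower at high wild-type levels.

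Markers of other cell types were summed over the members. All 7 expressed neutrophil markers were past 2-fold higher in SCD members, but the median log2 ratio of 2.24 is the value of S100a9, which with S100a8 was used by the rule. The 5 outside the rule had log2 ratios from 1.62 for Retnlg to 2.73 for Ngp, which encodes a neutrophil granule protein. The whole list summed to 1431 CPM in wild-type and 7037 CPM in SCD members, against 305266 and 438600 CPM in the neutrophil set, and the S100a8 and S100a9 limit of the rule caps this sum in members and sets it high in the neutrophil set. Erythroid markers, globins included, summed to 6334 and 3003 CPM, of which a single cell held 73.1% and 54.5%. Plasmacytoid DC markers summed to 528 and 446 CPM, of which Bst2 made up 301 and 248 CPM and Tcf4 179 and 173 CPM, while Siglech, a defining marker, had 6 and 1 UMIs. Megakaryocyte, basophil and endothelial markers had 1 UMI in all. Conventional DC markers summed to 107 and 41.8 CPM, with 5 and 11 of 13 at 0, and Xcr1 and Clec9a at 0 in both. Monocyte markers summed to 565 and 404 CPM, against 9460 and 10945 CPM in the monocyte set. T and NK cell markers summed to 43.8 and 55.8 CPM, with Cd3e, Cd8a and Gzma at 0. B cell markers summed to 133 and 335 CPM, and a single SCD cell held 59.2% of the latter. Cell cycle genes were counted per cell without Cdkn1a, Tubb5, Stmn1 and Pcna. At least 3 of their UMIs were seen in 6 of 253 wild-type (2.37%, 0.875 to 5.09%) and 10 of 105 SCD members (9.52%, 4.66 to 16.8%). The SCD members were the deeper ones. The whole cell cycle list summed to 567 and 873 CPM in members and to 1002 and 2091 CPM in the other kept cells.

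Within a depth slice of 1000 to 3000 UMIs, chosen after the values were seen, Hmox1 had a log2 ratio of 0.73, Fth1 0.86, Ftl1 0.83, Marco 2.41, Cd163 −2.33, Cd74 −2.65 and Slpi −1.94. Each kept the direction it had over all members. In the summed values fewer cells with a transcript and fewer transcripts per cell cannot be told apart, and the thinned shares are the values read at equal depth.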

How the data were processed

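Spleen cells from 1 wild-type and 1 SCD mouse, enriched for DCs by bead depletion, had been captured with 10x Genomics 3′ v3.1 chemistry. The authors deposited un-normalized UMI counts for each gene in each cell, made with Cell Ranger 4.0.0 on GRCm38.p6, per the submitters' processing notes. The library totals and the depth of the members are given in the report.

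Cells were kept by the limits of the study's methods, and members found by the rule stated above. Counts were summed per library over members, since cells of 1 animal are not replicates, and no test was made. Exact Poisson intervals were used for sums, exact conditional binomial intervals for ratios, Clopper-Pearson intervals for shares and the log method for ratios of shares (scipy 1.17.1 and pandas 2.3.3 under Python 3.11.15, with numpy 2.4.6 and matplotlib 3.10.9). The ratio step was tested on simulated counts. Doublets were called with Scrublet (scanpy 1.11.5) in each library and kept. Thinning drew 1000 UMIs a cell without replacement.

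The members and the 25 gene lists were chosen with earlier results of these data known. Of 398 list genes 397 were in the files. Genes named by ratio were the 12 highest and 12 lowest among expressed genes at or above the level of the other kept cells in the library where they were higher. Globin, ribosomal, sex-linked, rule and mitochondrial genes and those of antigen receptors were left out. The 20 genes outside the rule that led in both libraries were named as well. Coordinates come from GENCODE M21 and promoters from RefSeq, both on GRCm38. Of 26124 identifiers 26013 were found in GENCODE M21. The alternatives tried were other rule, cell and gene limits, scalings, pseudocounts, equal cell weights, thinning and the removal of called doublets. Some genes of the lists are counted but not reported by name here.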

Additional observations from a re-analysis of the deposited data

Results flagged for a closer look

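Kept cells that met every limit of the rule except that on S100a8 and S100a9 UMIs were more frequent in the SCD library. They are not members, and the report counted them only with the limit raised to 5%, which took in all 40 SCD cells and 5 of the 10 wild-type cells below. There were 40 of 10636 kept SCD cells, or 0.376% (exact binomial interval 0.269 to 0.512%), and 10 of 9424 kept wild-type cells, or 0.106% (0.0509 to 0.195%). The SCD cells lay close to the limit, with between 1.01% and 2.60% of these UMIs and a median depth of 1116.5 UMIs, whereas the wild-type cells reached 17.1% and had a median depth of 4076 UMIs. In the 40 SCD cells Hmox1 was at 8927 CPM, Cd5l at 2585 CPM, Marco at 545 CPM, Spic at 485 CPM and Cd163 at 60.6 CPM, against 9313, 2412, 471, 783 and 198 CPM in the SCD members. The Cd163 level of the 40 cells rested on 3 UMIs. The difference between these cells and the members was not tested.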

How the results depend on the processing

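No paired analysis was possible because both groups consisted of 1 sample. The thinning to 600 UMIs, the slice of 1000 to 3000 UMIs, the removal of the lower limit on genes and the removal of each gene's top cell were added after the data had been seen. The direction of the member share held in all settings run. The ratio of shares was 0.498 with the S100a8 and S100a9 limit at 5%, 0.564 with at least 1000 genes and 0.679 outside the neutrophil set. Genes higher by 2-fold numbered 125 with the limit of 20 UMIs alone, 34 with 200 CPM and 40 UMIs and 37 after thinning to 600 UMIs. Genes lower by 2-fold numbered 213, 37 and 178 in those settings, 119 with at least 1000 genes, 165 after thinning to 1000 UMIs and 216 in the depth slice. Thinning to 1000 and 600 UMIs and the depth slice moved the median log2 ratio of all genes to −0.17 in each case.

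The medians of 8 lists (heme, iron, NRF2, scavenger, complement, lysosomal, MHC class II and interferon) were computed under the alternatives, and those of the other lists were not. Of these 144 medians, 132 stayed within counting error. The iron median was −0.070 and −0.084 after thinning to 1000 and 600 UMIs and 0.017 in the slice. The interferon median was −0.96 with equal cell weights, −0.97 after thinning to 1000 UMIs and −1.15 in the slice. The complement median was −0.049 with rule genes at 2% and −0.14 with 20 UMIs alone. The scavenger median was −0.30 after thinning to 600 UMIs and −0.35 in the slice, the NRF2 median 0.75 after thinning to 1000 UMIs and the MHC class II median −2.05 after thinning to 600 UMIs. Of 756 values of named genes 674 stayed within counting error and 6 changed sign although their counting interval excluded a ratio of 1. These were C1qa (−0.047 with rule genes at 2%), Ncoa4 (−0.052 after thinning to 1000 UMIs) and Slc40a1 (−0.081 with equal weights, −0.070 and −0.084 after thinning to 1000 and 600 UMIs, −0.28 in the slice). The cause was not tested.

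Shares of members with a UMI followed the depth. At 2000 UMIs the wild-type and SCD shares were 100% and 100% for Hmox1, 81.0% and 78.2% for Spic, 68.3% and 90.9% for Cd5l and 11.1% and 38.2% for Marco. At 600 UMIs they were 90.5% in wild-type for Hmox1, 35.2% and 35.2% for Spic, 32.4% and 71.4% for Cd5l and 15.2% in SCD for Marco. Unthinned shares were 68.6% in SCD for Spic and 61.3% and 95.2% for Cd5l. Genes under 100 CPM or 20 UMIs in both libraries were not counted, since the members are shallow.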
